A study of Mus musculus with 15 samples.

Results

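Transcripts of 10 genes of interleukin-6 (IL-6) signalling and the acute phase response were followed in the tibialis anterior, a muscle at the front of the lower leg, of mice with and without lung tumours. They are the receptor genes Il6ra, Il6st and Osmr, the transcription factor gene Stat3, the feedback inhibitor genes Socs3 and Cish, and the acute phase genes Lcn2, Serpina3n, Serpina3m and Saa3. These are 10 of the 55416 genes in the deposited tables, and each was among the 14372 genes that passed the filter on low counts. Serpina3m and Saa3 passed through the libraries in which they were high, so their differences are a description. RNA sequencing covered 15 libraries in 4 groups of male C57BL/6 (C57BL/6NCrlOri) animals aged 6 to 8 weeks at the start. In 3 groups KrasIKKaL tumour cells had been delivered through the trachea, and the control group had no tumour (n = 5). The tumour-bearing groups were injected into the peritoneum with a rat IgG2b isotype antibody, clone LTF-2 (IgG, n = 4), with anti-PD-L1, clone 10F.9G2, at 200 µg/kg 3 times a week (n = 3), or with anti-CD8a, clone 2.43, at 200 µg 3 times a week (n = 3). PD-L1 is a ligand that restrains T cells, and CD8a is the coreceptor of cytotoxic T cells. The treatment label of the IgG group reads anti-IgG, while the protocol describes the isotype antibody. The labels name no injection for the control group, so the effect of the tumour and that of the injected IgG cannot be told apart in IgG against control. Nor do they state whether every library is a separate animal, so the p-values measure the spread between these libraries.

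IL-6 and its relatives act through gp130, a shared receptor chain encoded by Il6st. IL-6 binds its own receptor (Il6ra) and oncostatin M binds OSMR, and each complex recruits gp130, which activates JAK kinases and the transcription factor STAT3. STAT3 switches on Socs3, whose product blocks the same receptor, and Cish, a relative of Socs3, is a classical target of STAT5 that dampens growth hormone and cytokine signals. The liver answers IL-6 with acute phase proteins, and skeletal muscle expresses several of the same genes. IL-6 and STAT3 are known for their part in muscle wasting in cancer models.

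The 2 feedback inhibitor genes are shown by sequence because their promoter windows carried the motif TTCNNNGAA, which STAT factors are known to bind and which is its own reverse complement, so that both strands were covered in 1 search. RefSeq windows of 300 bases (250 before and 50 after the annotated start, assembly GRCm38.p6) were found for 9 of the 10 genes, and Serpina3m had no entry in the table. The motif stood in 2 of these 9 windows and in 8.30% of 32851 windows of the same length. Socs3 held it once, 154 bases before the start, and the 250 bases before its start lie on the minus strand at chr11:117969367-117969616. Cish held it at bases 1 and 12 counted from the start as 1, within 20 bases on the plus strand at chr9:107296659-107296678, and 0.457% of all windows held 2 or more. Capitals mark the motif in both sequences, and a match describes these letters and not a bound site.
Socs3: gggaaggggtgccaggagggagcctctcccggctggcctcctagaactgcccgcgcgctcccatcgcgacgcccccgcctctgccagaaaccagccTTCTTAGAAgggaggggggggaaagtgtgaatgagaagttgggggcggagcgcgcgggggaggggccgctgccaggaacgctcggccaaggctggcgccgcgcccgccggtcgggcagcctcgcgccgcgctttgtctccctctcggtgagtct
Cish: TTCCTGGAAagTTCTTGGAA

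The libraries held 15894822 to 22459370 expected counts, and 3 counts corresponded to 0.134 to 0.189 CPM (counts relative to a library size adjusted by the trimmed mean of M values, TMM). Floors and intervals of counts cover counting error only. The muscle label was met by the data: all 8 muscle fibre markers passed the filter and summed to 55516 to 106465 CPM in every library. A gene was called at an adjusted p under 0.05 by edgeR's quasi-likelihood test. In IgG against control, 30.2% of all tested genes were called higher and 28.4% lower. One library stood apart for these genes: control replicate 3 was the highest of the 5 controls for 10 of the 10 genes, whereas it was the highest control library for 22.5% of all tested genes. Anti-CD8a replicate 3 was the highest of its 3 libraries for 8 of the 10, against 36.1% of all tested genes. Fold changes that rest on these 2 libraries are given with and without them, a setting chosen after their values were seen. Leaving out the highest libraries of the lower groups widens the differences from IgG and anti-PD-L1 by construction, so calls gained that way are not used.

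In IgG against control, 9 of the 10 genes were called higher and 0 lower, beside 30.2% and 28.4% of all genes in those directions. The counts and medians of the 10 genes, here and below, include Serpina3m and Saa3, whose differences are a description. The median log2 fold change of the 10 was 2.10, beside -0.02 for all tested genes. Leaving out control replicate 3 and anti-CD8a replicate 3 widens these 9 differences by construction, so the 9 calls that remained there are no check. In anti-CD8a against IgG, 6 of the 10 were called lower and 0 higher, beside 24.8% lower and 23.2% higher of all tested genes, with a median of -2.32 against 0.02. Without the same 2 libraries Cish was no longer called.

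Markers of other cell types moved between the same groups, and their part in the levels of the 10 genes was not tested. Of 8 macrophage markers, 1 (Cd68) was called higher and 7 lower in IgG than in control. In anti-CD8a against IgG, 5 of the 8 were called higher and 1, again Cd68, lower. Cd68 averaged 2.81 ± 0.582 CPM (SD, n = 5) in control and 21.3 ± 15.1 CPM (SD, n = 4) in IgG, and 2.26 ± 1.08 CPM (SD, n = 3) in anti-CD8a. C1qa, which went the other way, averaged 12.6 ± 2.32 CPM (SD, n = 5) in control. It averaged 5.76 ± 1.04 CPM (SD, n = 4) in IgG and 12.6 ± 4.61 CPM (SD, n = 3) in anti-CD8a. Summed macrophage markers were 95.1 to 173 CPM in control, 62.5 to 101 CPM with IgG and 65.9 to 227 CPM with anti-CD8a. Of 6 fibroblast markers, 5 were called lower in IgG than in control and 4 higher in anti-CD8a than in IgG. The collagen gene Col1a1 was at 101 CPM in control, 3.44 in IgG and 53.5 in anti-CD8a on average, while Dcn did not pass the test in either comparison. Of 5 epithelial markers, 3 passed the filter, and the keratin genes Krt8 and Krt18 were called higher in IgG than in control and lower in anti-CD8a than in IgG. Krt8 averaged 0.212 CPM in control, 2.28 in IgG (0.378 to 6.78) and 0.171 in anti-CD8a, and the defining markers Epcam and Sftpc stayed below the filter. With at most 6 counts in any control or anti-CD8a library, Krt8 passed the filter through libraries in which it was high. Its differences are thus a description. Cdh1 of the same list was lower on average in IgG (0.336 CPM) than in control (0.677 CPM) and was not called. Summed epithelial markers were 13.9 CPM in IgG replicate 4 and 1.01 to 3.25 CPM in the other IgG libraries.

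**Figure D1:**
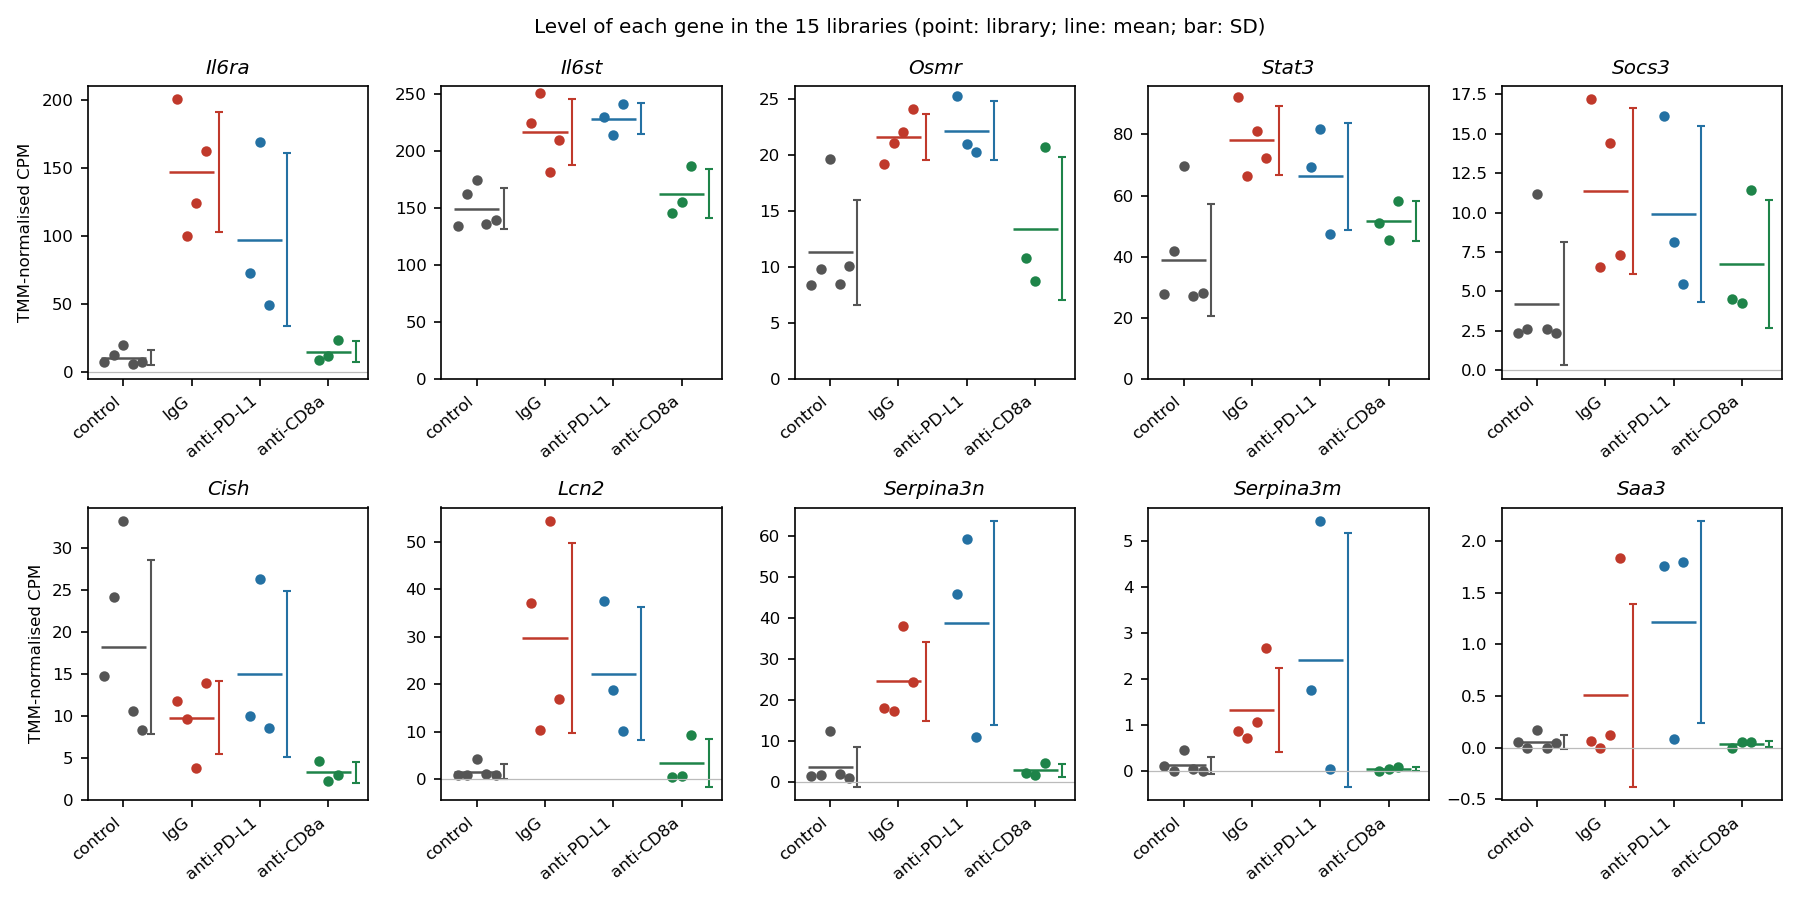
TMM-normalised CPM of the 10 genes (vertical axis) in the 15 libraries by group (horizontal axis); each point is a library, the horizontal line the group mean and the bar beside it the SD. Il6ra, Il6st, Lcn2, Serpina3n and Serpina3m were higher in all IgG libraries than in any control library, and Cish lay between 2.25 and 4.63 in the anti-CD8a libraries.

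Il6ra (ENSMUSG00000027947), the gene of the IL-6 binding receptor, was the receptor gene of widest range. It measured 7.01, 12.7, 19.4, 5.90 and 7.27 CPM in the 5 control libraries and 200.2, 99.5, 124 and 162 CPM in the 4 IgG libraries. Its levels were 72.9, 169 and 49.3 CPM under anti-PD-L1 and 8.93, 11.7 and 23.7 CPM under anti-CD8a. All IgG and anti-PD-L1 libraries thus lay above all control and anti-CD8a libraries, and the spread was widest under anti-PD-L1. The mean was 14.0 times as high in IgG as in control (log2 fold change 3.81 ± 0.43 SE, adjusted p = 3.58e-06). It was lower in anti-CD8a than in IgG by a log2 fold change of -3.31 ± 0.51 (adjusted p = 0.000133) and higher in anti-PD-L1 than in control by 3.22 ± 0.44 (adjusted p = 0.000120). By mean, IgG stood first, followed by anti-PD-L1, anti-CD8a and control. Neither the first pair of neighbours (adjusted p = 0.411) nor the last (adjusted p = 0.860) passed the test, while anti-PD-L1 and anti-CD8a differed by 2.71 ± 0.51 (adjusted p = 0.00311). Each of the 4 calls for Il6ra stood under all 25 alternatives. RSEM gave Il6ra counts that were not whole in 10 of 15 libraries, since part of its reads was shared with other features.

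Il6st (ENSMUSG00000021756), the gene of gp130, changed by far less. It ranged over 134 to 174 CPM in control libraries, 182 to 251 under IgG, 214 to 241 under anti-PD-L1 and 146 to 187 under anti-CD8a. The IgG and anti-PD-L1 ranges lay above the control range, and the IgG and anti-CD8a ranges overlapped. Il6st was higher in IgG than in control by a log2 fold change of 0.54 ± 0.13 (adjusted p = 0.00193), a call lost with upper-quartile normalization (adjusted p = 0.0601). Its lower level in anti-CD8a than in IgG (-0.41 ± 0.15, adjusted p = 0.0295) was lost under 9 of 25 alternatives, with adjusted p up to 0.307. Among them were those without IgG replicate 1 or 2 and those without anti-CD8a replicate 1 or 2.

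Osmr (ENSMUSG00000022146), the gene of the oncostatin M receptor chain, ranged over 8.41 to 19.7 CPM in control libraries, 19.2 to 24.1 under IgG, 20.3 to 25.3 under anti-PD-L1 and 8.70 to 20.7 under anti-CD8a. The high ends in control and anti-CD8a were both replicate 3, and the next highest libraries held 10.1 and 10.8 CPM. Osmr was called higher in IgG than in control (0.94 ± 0.26, adjusted p = 0.00565) and not called in anti-CD8a against IgG (-0.68 ± 0.30, adjusted p = 0.0690). Without those 2 libraries the second difference was -1.12.

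Per length, the balance of the 2 receptor transcripts differed between groups. In deposited TPM, which corrects counts for transcript length and depth, Il6ra averaged 1.46 ± 0.859 (SD, n = 5) among controls and 26.3 ± 9.05 (SD, n = 4) under IgG, and Il6st 25.3 ± 4.45 (SD, n = 5) and 37.8 ± 7.32 (SD, n = 4). The ratio of Il6ra to Il6st in TPM was 0.0306 to 0.104 in control and 0.412 to 0.973 under IgG. It was 0.196 to 0.736 under anti-PD-L1 and 0.0473 to 0.0945 under anti-CD8a. The control and anti-CD8a ratios overlapped, and both lay below all IgG and anti-PD-L1 ratios. These ratios are a description and were not tested. Osmr was the least abundant of the 3 in IgG per length, at 4.76 ± 0.940 TPM (SD, n = 4).

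**Figure D2:**
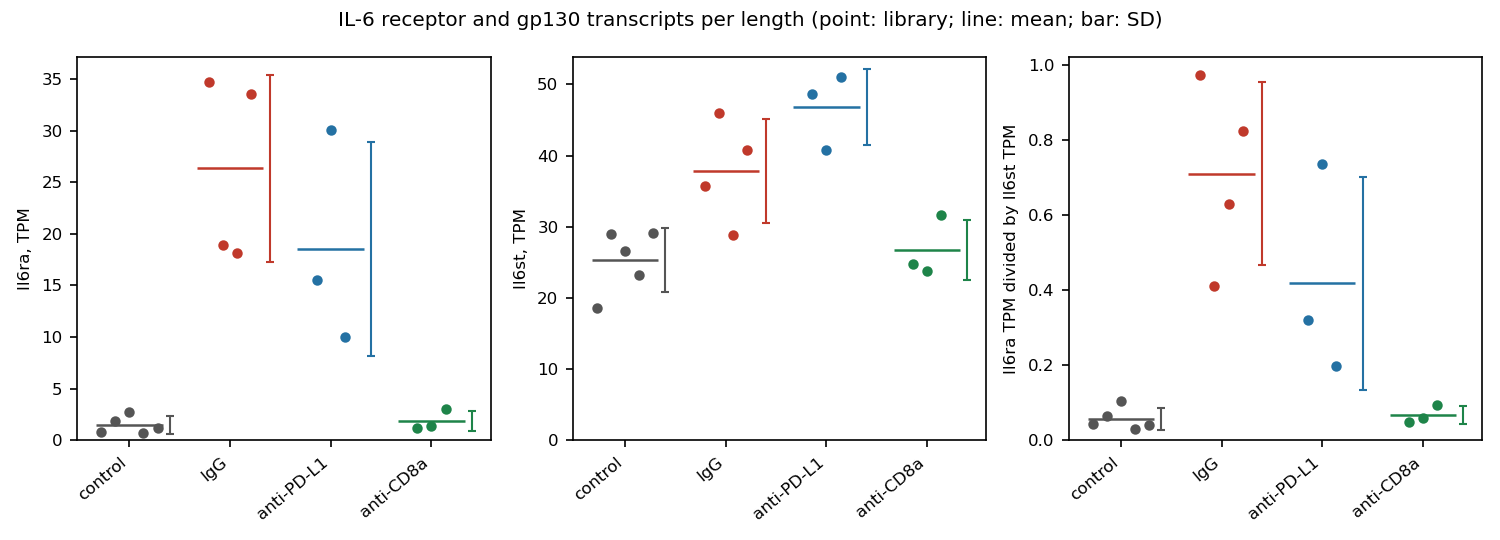
Deposited TPM of Il6ra (left) and Il6st (middle) and their ratio (right, no unit) in each library by group; points are libraries, lines group means and bars the SD. The ratio lies between 0.412 and 0.973 in IgG and at most at 0.104 in control and 0.0945 in anti-CD8a.

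Stat3 (ENSMUSG00000004040) measured 27.6, 41.7, 69.7, 26.9 and 28.0 CPM in control and 92.3, 66.5, 81.2 and 72.4 CPM in IgG. It measured 69.3, 81.9 and 47.5 CPM under anti-PD-L1 and 51.0, 45.3 and 58.4 CPM under anti-CD8a. Control replicate 3 reached the IgG range, and the other 4 control libraries lay below every library of the other groups. Stat3 was higher in IgG than in control by a log2 fold change of 1.01 ± 0.25 (adjusted p = 0.00282), under all 25 alternatives. Anti-CD8a against IgG did not overlap in range, yet was not called (-0.60 ± 0.29, adjusted p = 0.10). The call in anti-PD-L1 against control (0.77 ± 0.27, adjusted p = 0.0367) was lost under 10 alternatives, with adjusted p up to 0.176. Among those were the settings without control replicate 1, 2, 4 or 5 and without anti-PD-L1 replicate 1 or 2.

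Socs3 (ENSMUSG00000053113) measured 2.36, 2.59, 11.2, 2.60 and 2.36 CPM in control. It measured 17.2, 6.56, 14.4 and 7.33 CPM in IgG, 16.2, 8.14 and 5.45 CPM under anti-PD-L1, and 4.52, 4.29 and 11.4 CPM under anti-CD8a. Apart from replicate 3, the control libraries were close together and below all others. Socs3 was called higher in IgG than in control (1.43 ± 0.51, adjusted p = 0.0231). That call was lost under 7 of 25 alternatives, with adjusted p up to 0.0848: without control replicate 1, 2, 4 or 5, without IgG replicate 1 or 3, and with upper-quartile normalization. Without control replicate 3 and anti-CD8a replicate 3 the log2 fold change in IgG against control was 2.19. Socs3 was not called in anti-PD-L1 against control (1.24 ± 0.54, adjusted p = 0.0855) or in anti-CD8a against IgG (-0.75 ± 0.58, adjusted p = 0.297).

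Cish (ENSMUSG00000032578), whose window holds 2 copies of the motif shown above, had a fold change below 0 in IgG against control, which did not pass the test, where the other 9 genes were above 0. Its levels were 14.8, 24.1, 33.2, 10.5 and 8.29 CPM in control and 11.8, 9.69, 3.78 and 13.9 CPM in IgG. They were 10.0, 26.3 and 8.53 CPM under anti-PD-L1 and 4.63, 2.25 and 3.02 CPM under anti-CD8a. The anti-CD8a libraries lay below all control and anti-PD-L1 libraries, and IgG replicate 3 fell among them. Cish was not called in IgG against control (-0.89 ± 0.45, adjusted p = 0.0982). It was called lower in anti-CD8a than in IgG (-1.57 ± 0.55, adjusted p = 0.0271), a call lost under 7 of 25 alternatives with adjusted p up to 0.103. Without control replicate 3 and anti-CD8a replicate 3 the adjusted p was 0.0608, and leaving out IgG replicate 1 or 4, or anti-CD8a replicate 2 or 3, also ended the call. Anti-PD-L1 was higher than anti-CD8a by 2.18 ± 0.57 (adjusted p = 0.0158), which was lost without anti-PD-L1 replicate 2 or anti-CD8a replicate 2 (adjusted p up to 0.105).

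**Figure D3:**
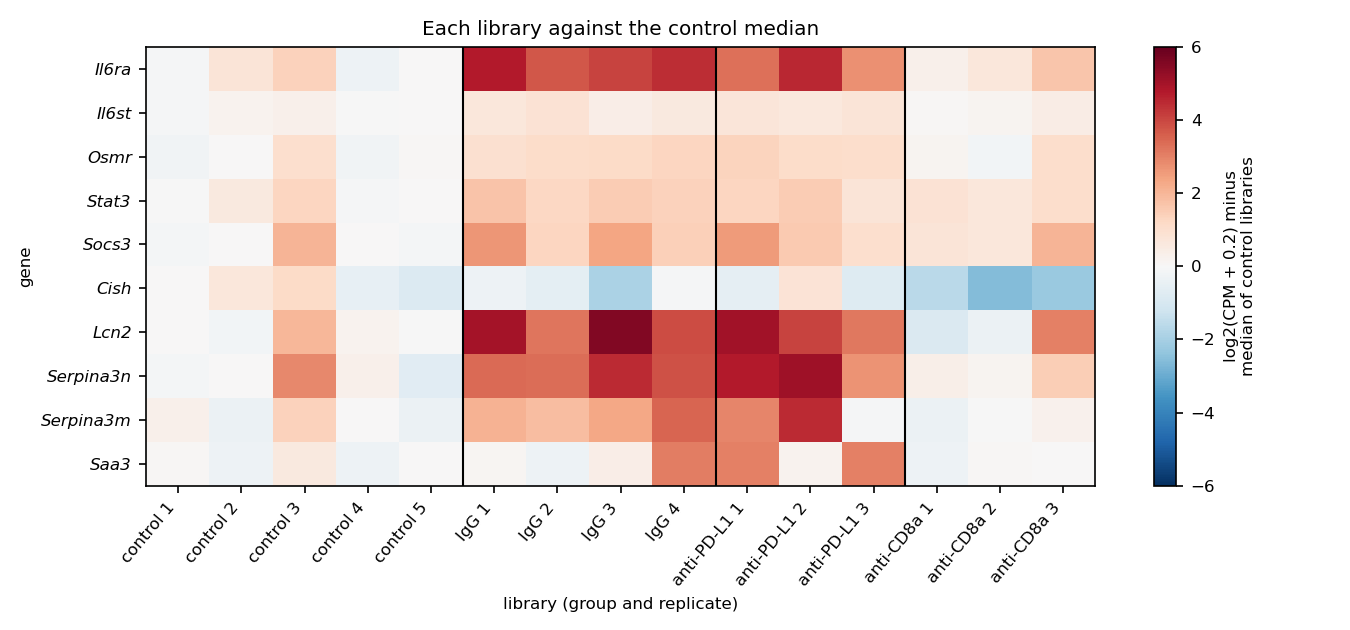
Level of each gene (rows) in each library (columns, ordered by group) as log2(CPM + 0.2) minus the median of the 5 control libraries; red is above and blue below that median. Control replicate 3 is above the control median for all 10 genes, and Cish is below it in all 3 anti-CD8a libraries.

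Among the acute phase genes, Lcn2 (ENSMUSG00000026822) encodes lipocalin 2, a protein that binds bacterial iron carriers. It measured 0.953, 0.825, 4.37, 1.14 and 0.936 CPM in control and 37.1, 10.5, 54.4 and 17.0 CPM in IgG. Its levels were 37.5, 18.9 and 10.1 CPM under anti-PD-L1, and 0.436, 0.698 and 9.31 CPM under anti-CD8a. Every IgG and anti-PD-L1 library lay above every control and anti-CD8a library, although anti-CD8a replicate 3 came within reach of the lowest of them. The mean was 18.1 times as high in IgG as in control (log2 fold change 4.19 ± 0.77, adjusted p = 0.000274). Lcn2 was lower in anti-CD8a than in IgG by -3.07 ± 0.88 (adjusted p = 0.00928), and by -5.68 without control replicate 3 and anti-CD8a replicate 3. The call in anti-PD-L1 against anti-CD8a (2.65 ± 0.89, adjusted p = 0.0468) was lost under 13 of 25 alternatives, with adjusted p up to 0.152. Those included the settings without control replicate 1, 2, 4 or 5, anti-PD-L1 replicate 1 or 2, or anti-CD8a replicate 1 or 2.

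Markers of neutrophils, which also hold lipocalin 2, moved with part of this pattern. Of 8 neutrophil markers, 5 passed the filter, and the defining markers Ly6g, Mmp8 and Mpo did not. Their summed level was 4.95 CPM in control replicate 3 and 0.472 to 0.673 CPM in the other controls, 3.54 to 11.02 CPM under IgG, 12.9 to 57.3 CPM under anti-PD-L1 and 2.83 to 9.16 CPM under anti-CD8a, with replicate 3 highest. The anti-PD-L1 sums lay above all IgG sums while the Lcn2 ranges of these groups overlapped, and IgG and anti-CD8a sums overlapped while their Lcn2 ranges did not. The part of neutrophils in these levels was not tested, and in whole muscle a change in the number of cells of a type and a change in RNA per cell cannot be told apart.

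Serpina3n (ENSMUSG00000021091) and Serpina3m (ENSMUSG00000079012) encode secreted serine protease inhibitors of the alpha-1-antichymotrypsin family. Serpina3n measured 1.40, 1.53, 12.4, 1.95 and 0.892 CPM in control and 18.0, 17.4, 38.2 and 24.5 CPM in IgG. It measured 46.0, 59.5 and 10.99 CPM under anti-PD-L1 and 2.02, 1.72 and 4.60 CPM under anti-CD8a. Anti-PD-L1 replicate 3 fell below control replicate 3, so those groups overlapped, while IgG overlapped with neither control nor anti-CD8a. Serpina3n was higher in IgG than in control by 2.77 ± 0.66 (adjusted p = 0.00193), and by 4.09 without control replicate 3 and anti-CD8a replicate 3. It was lower in anti-CD8a than in IgG by -3.13 ± 0.81 (adjusted p = 0.00527), under all 25 alternatives.

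Serpina3m was scarce, with 2, 0, 8, 1 and 0 counts in the control libraries and 14, 12, 17 and 44 counts in the IgG libraries. Anti-PD-L1 libraries held 37, 127 and 1 counts and anti-CD8a libraries 0, 1 and 2. Every IgG library lay above every control and anti-CD8a library, and anti-PD-L1 spanned both ends. Per total counts, Serpina3m was 10.9 times as abundant in IgG as in control (95% counting interval 5.78 to 22.5), and the fitted log2 fold change was 3.41 ± 1.01 (adjusted p = 0.00866), a call lost with the replicate block (adjusted p = 0.0526). The difference between anti-PD-L1 and control (4.26 ± 1.00, adjusted p = 0.00460) was lost without anti-PD-L1 replicate 2 (adjusted p up to 0.0683). Anti-CD8a against IgG (-4.51 ± 1.38, adjusted p = 0.0140) was lost without anti-CD8a replicate 1 and with limma on log2(TPM + 1) (adjusted p up to 0.0662). Its log2 fold change ran from -5.30 to -0.886 over the alternatives. Serpina3 genes are near copies of each other, and Serpina3m counts were not whole in 3 libraries, so some of its reads may be shared with other genes of the family. Serpina3n counts were whole in all 15 libraries.

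Saa3 (ENSMUSG00000040026), a serum amyloid A gene expressed outside the liver, was above 3 counts in 3 libraries. Its counts were 1, 0, 3, 0 and 1 in the control libraries, 1, 0, 2 and 30 under IgG, 37, 2 and 41 under anti-PD-L1 and 0, 1 and 1 under anti-CD8a. In IgG, replicate 4 alone stood above the floor of 3 counts, and under anti-PD-L1 replicates 1 and 3 did. The call in IgG against control (3.08 ± 1.27, adjusted p = 0.0469) was lost under 12 of 23 alternatives, with adjusted p up to 0.230. Those included the settings without control replicate 1, 2, 4 or 5, anti-PD-L1 replicate 1 or 3, or any of the 3 anti-CD8a libraries. Per total counts, Saa3 was 24.7 times as abundant in anti-PD-L1 as in control (95% counting interval 10.1 to 78.1), and the fitted value (4.33 ± 1.19, adjusted p = 0.0113) rests on near-0 controls.

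In anti-PD-L1 against IgG, where 5.5% of all genes were called, 0 of the 10 genes were called by edgeR's quasi-likelihood test, and DESeq2 called 0. Of the 10, 0 had an unadjusted p under 0.05, beside 3862 of all 14372 tested genes. Their log2 fold changes ran from -0.59 for Il6ra to 1.25 for Saa3, with a median of 0.06 beside 0.01 for all genes. Leaving out both replicates 2 (IgG and anti-PD-L1), libraries that earlier results of these data had set apart, Il6ra was called lower (1 of 10). For Il6ra these were the lowest IgG library (99.5 CPM) and the highest anti-PD-L1 library (169 CPM). Leaving them out widens its difference by construction, so that call is not used. The standard errors of the acute phase genes in this comparison were 0.68 to 0.98, so differences well above that size could go uncalled. The neutrophil marker S100a9, with a standard error of 0.68, passed edgeR's test narrowly at a log2 fold change of 2.44 (adjusted p = 0.0488). In anti-CD8a against control, 0.0139% of all genes were called and 0 of the 10. At an unadjusted p under 0.05 there was 1 of the 10, beside 1109 of all 14372 tested genes. It was Cish (-2.46 ± 0.54, adjusted p = 0.183), which DESeq2 called and which was also called with no filter on low counts. The lowest control library for Cish, at 8.29 CPM, exceeded the highest anti-CD8a library, at 4.63 CPM.

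In anti-PD-L1 against control, 20.8% of all genes were called higher and 13.9% lower, and 8 of the 10 were called higher and 0 lower. Socs3 and Cish (-0.28 ± 0.47, adjusted p = 0.679) were not called. In anti-PD-L1 against anti-CD8a, 12.1% of all genes were called higher and 7.65% lower, and 7 of the 10 were called higher and 0 lower. Osmr (0.72 ± 0.31, adjusted p = 0.114), Stat3 (0.36 ± 0.31, adjusted p = 0.422) and Socs3 (0.55 ± 0.61, adjusted p = 0.542) were not called there. This second count fell to 4 without anti-PD-L1 replicate 1, to 3 without anti-PD-L1 replicate 2 or anti-CD8a replicate 1, and to 2 without anti-CD8a replicate 2. The comparisons share libraries, and their values stand side by side without a test of likeness.

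**Figure D4:**
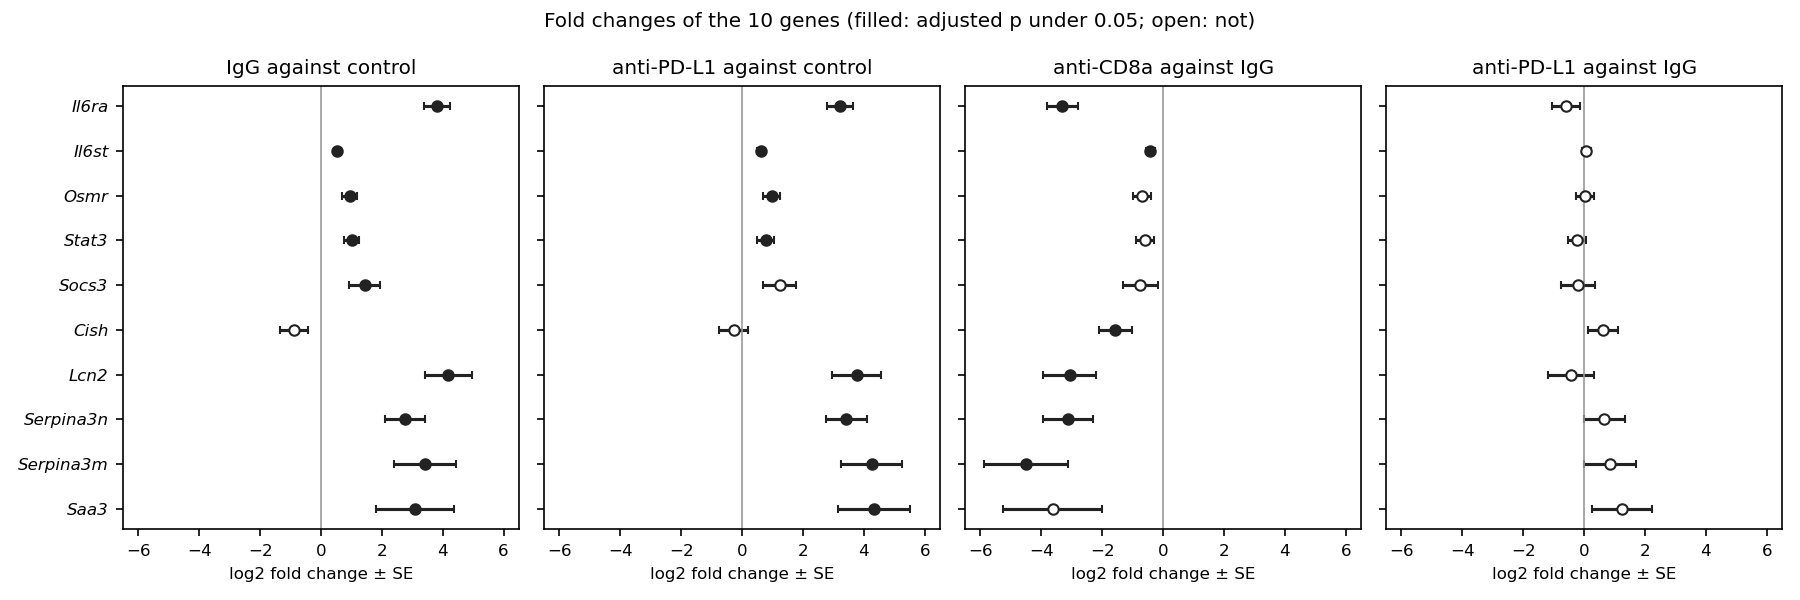
Log2 fold change of each gene (rows) with its standard error in 4 comparisons; filled points passed an adjusted p under 0.05 and open points did not. In IgG against control 9 points are filled on the higher side, in anti-CD8a against IgG 6 on the lower side, and in anti-PD-L1 against IgG 0.

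Other genes of the pathway were taken from 7 lists of 89 genes, of which 63 passed the filter. In IgG against control 24 of the 63 were called higher and 15 lower, beside 30.2% and 28.4% of all tested genes. In anti-CD8a against IgG 12 were called higher and 20 lower, beside 23.2% and 24.8%, and in anti-PD-L1 against IgG 3 were called higher and 0 lower, beside 5.5% called in either direction. The counts of the single lists below are to be read against the same shares, and nothing particular to a list is drawn from them. In anti-CD8a against control 0 of the 63 were called by edgeR. An unadjusted p under 0.05 was found for 8, beside 1109 of all 14372 tested genes.

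Of 10 ligand genes, 5 passed the filter, and 1 was called higher and 1 lower in IgG against control. Il6 itself was near the limit of detection. Like Serpina3m and Saa3, Il6 passed the filter through the libraries in which it was high, so its differences are a description. It had 1, 1, 1, 2 and 0 counts in the control libraries, 21, 4, 9 and 10 under IgG, 3, 17 and 3 under anti-PD-L1 and 3, 2 and 8 under anti-CD8a. Il6 was 12.1 times as abundant per total counts in IgG as in control (95% counting interval 4.80 to 39.0), with a fitted log2 fold change of 3.50 ± 0.75 (adjusted p = 0.000929). Il6 was also called higher in anti-PD-L1 than in control (2.51 ± 0.83, adjusted p = 0.0296). That call was lost under 7 of 22 alternatives (adjusted p up to 0.367), among them those without anti-PD-L1 replicate 2, which held 17 of the 23 counts, without control replicate 1, 2 or 5, and with the replicate block. Il6 was not called in anti-CD8a against IgG (-1.56 ± 0.71, adjusted p = 0.0799). The ligand genes Il11, Lif, Osm, Il27 and Ebi3 stayed below the filter with 13 to 52 counts over all 15 libraries.

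Of the other receptors, 3 of 4 passed the filter, and 0 were called higher and 2 lower in IgG against control. Cntfr, the receptor of ciliary neurotrophic factor, was lower by -2.14 ± 0.38 (adjusted p = 0.000184) and Lifr, the leukaemia inhibitory factor receptor, by -0.63 ± 0.14 (adjusted p = 0.000961). Both were called higher in anti-CD8a than in IgG, Cntfr by 1.299 ± 0.41 (adjusted p = 0.0163) and Lifr by 0.53 ± 0.15 (adjusted p = 0.00945). The Cntfr call was lost without anti-CD8a replicate 3 (adjusted p = 0.0587). Lifr was called in neither comparison by limma on log2(TPM + 1), with adjusted p of 0.218 in IgG against control and 0.460 in anti-CD8a against IgG. In IgG against control, Cntfr and Lifr thus had log2 fold changes below 0, and Il6ra, Il6st and Osmr above 0. The other tested receptor was not called, and the highest log2 fold change of this list was -0.048.

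Among 11 tested JAK, STAT and shedding genes, 1 was called higher and 5 lower in IgG against control, and 4 higher and 0 lower in anti-CD8a against IgG. Adam17, a protease that sheds the IL-6 receptor from the cell surface, was lower in IgG than in control by -1.19 ± 0.21 (adjusted p = 0.000203) and higher in anti-CD8a than in IgG by 1.04 ± 0.23 (adjusted p = 0.00205).

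Of 13 tested inhibitor and phosphatase genes, 6 were called higher and 0 lower in IgG against control. Socs2, an inhibitor of growth hormone signalling related to Cish, was at 9.18 ± 1.77 CPM among controls (SD, n = 5) and higher under IgG, at 36.6 ± 25.1 CPM (SD, n = 4; adjusted p = 0.000213), and Pias4 was higher by 1.83 ± 0.21 on the log2 scale (adjusted p = 3.73e-06). In anti-CD8a against IgG, 2 of the 13 were called higher and 5 lower, with Socs2 at -1.91 ± 0.43 (adjusted p = 0.00194) and Pias4 at -1.55 ± 0.24 (adjusted p = 0.000147). In anti-PD-L1 against IgG 1 was called, Ptpn6, a phosphatase of blood cells, at 1.66 ± 0.37 (adjusted p = 0.0234). That call ended when anti-PD-L1 replicate 1 or 3 was left out, and likewise IgG replicate 1, 3 or 4. Clcf1 (-0.63 ± 0.38, adjusted p = 0.292), Lifr (0.49 ± 0.15, adjusted p = 0.0658), Steap4 (0.66 ± 0.22, adjusted p = 0.0779) and Igf1r (-0.45 ± 0.26, adjusted p = 0.268) each had the smallest p of a list in which no gene was called in that comparison.

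Of 14 tested STAT3 target genes, 9 were called higher and 3 lower in IgG against control, beside 30.2% and 28.4% of all genes. Cebpd, a transcription factor of the acute phase, averaged 33.8 ± 18.4 CPM (SD, n = 5) among controls and 300.5 ± 132 CPM (SD, n = 4) with IgG (log2 fold change 3.15 ± 0.45, adjusted p = 2.73e-05). Junb, an AP-1 subunit, was higher by 3.12 ± 0.53 (adjusted p = 0.000140). In anti-CD8a against IgG 1 was called higher and 7 lower, led by the kinase gene Pim1 (-2.62 ± 0.56, adjusted p = 0.00134) and Cebpd (-2.29 ± 0.53, adjusted p = 0.00233). In anti-PD-L1 against IgG 0 of the 14 were called by edgeR. An unadjusted p under 0.05 was found for 3, beside 3862 of all 14372 tested genes.

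Of 28 other acute phase genes, 12 passed the filter, with 5 called higher and 1 lower in IgG against control. Lrg1, a leucine-rich glycoprotein gene, was higher by 1.65 ± 0.31 (adjusted p = 0.000304). Ptx3, a long pentraxin gene, was lower in IgG (1.297 ± 0.592 CPM, SD, n = 4) than in control (8.27 ± 1.70 CPM, SD, n = 5; adjusted p = 2.97e-05). In anti-CD8a against IgG, 1 was called higher, Ptx3 (2.55 ± 0.41, adjusted p = 0.000181), and 5 lower, among them Lbp, the lipopolysaccharide binding protein gene (-0.89 ± 0.27, adjusted p = 0.0126), a call lost without anti-CD8a replicate 1. In anti-PD-L1 against IgG, 2 of the 12 were called, both higher: the complement gene C3 (1.89 ± 0.28, adjusted p = 0.00483) and Serpina3c (1.56 ± 0.37, adjusted p = 0.0287), the latter not called once anti-PD-L1 replicate 1 was left out, and likewise IgG replicate 1, 3 or 4. Macrophages also express C3, and their markers summed to 185 to 596 CPM in anti-PD-L1 and 62.5 to 101 CPM in IgG, with Lyz2 the highest member in both (211 and 30.1 CPM on average). Cd68 of the same list was at 10.1 CPM in anti-PD-L1 and 21.3 CPM in IgG and did not pass the test (-1.07 ± 0.55, adjusted p = 0.224). The part of macrophages in the C3 difference was not tested, and the C3 call was lost with the 2 groups alone (adjusted p = 0.0522). Serpina3k, named after its values were seen, had 0 counts in all control and anti-CD8a libraries and 80 counts over the IgG libraries (0 to 34 per library), so that its fitted fold change, which is plotted, is no bound.

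Of the acute phase genes below the filter, Fgg and Apcs had 0 counts in all 15 libraries, and Fga, Fgb, Crp and Hpx had 3 to 9 counts over all of them. Saa1 had 56 counts, 29 of them in 1 library. Hepatocyte markers summed to at most 2.26 CPM, and 0 of 4 passed the filter.

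Of 5 tested genes of the growth hormone and STAT5 axis, in which Cish acts, 2 were called higher and 3 lower in IgG against control. Igfbp3, a carrier of insulin-like growth factors, averaged 16.1 ± 3.27 CPM (SD, n = 5) among controls, 159 ± 68.1 CPM (SD, n = 4) with IgG and 14.97 ± 2.26 CPM (SD, n = 3) with anti-CD8a. Its log2 fold change was 3.30 ± 0.37 in IgG against control (adjusted p = 3.78e-06) and -3.41 ± 0.46 in anti-CD8a against IgG (adjusted p = 5.32e-05). Igf1r, the receptor of insulin-like growth factor 1, was higher in IgG than in control by 1.36 ± 0.23 (adjusted p = 0.000112) and lower in anti-CD8a than in IgG by -1.03 ± 0.26 (adjusted p = 0.00501).

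**Figure D5:**
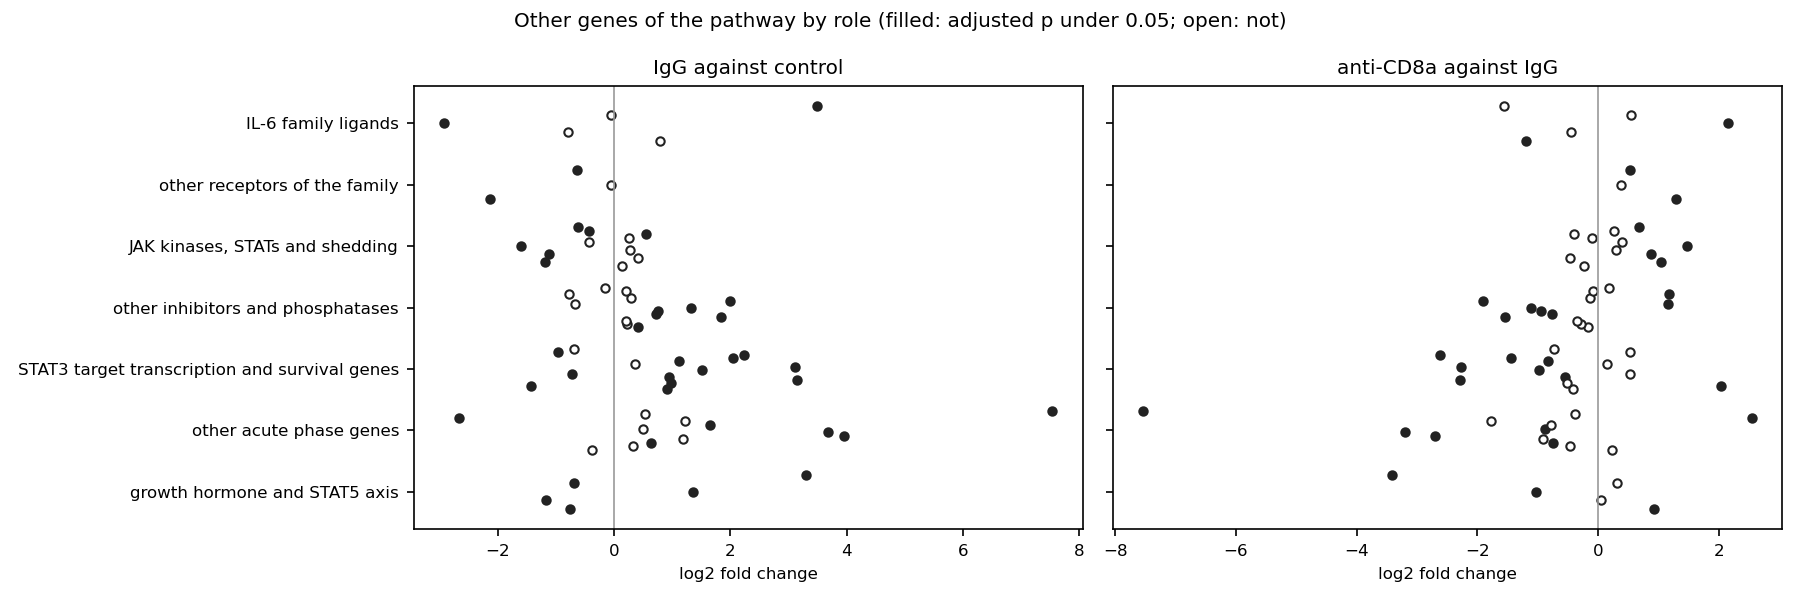
Log2 fold changes (horizontal axis) of the 63 tested genes of the 7 other pathway lists (rows) in IgG against control (left) and anti-CD8a against IgG (right); filled points passed an adjusted p under 0.05. Filled points lie on both sides of 0 in both panels, and the point farthest from 0 in each is Serpina3k, whose counts were 0 in control and anti-CD8a.

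For each of the 10 genes, the 1 other gene of most similar profile was sought by the mean absolute difference of standardised log2 CPM over the 15 libraries, in units of SD. The closest match was that of Il6ra with Retreg1, a receptor for autophagy of the endoplasmic reticulum, at 0.111 SD. Retreg1 averaged 276 ± 103 CPM (SD, n = 5) among controls and 3780 ± 1215 CPM (SD, n = 4) with IgG. With anti-PD-L1 it averaged 2362 ± 1506 CPM (SD, n = 3), and with anti-CD8a 359 ± 54.0 CPM (SD, n = 3). Osmr was nearest to Sbno2 (0.186 SD), Stat3 to the transcription factor gene Foxo1 (0.205 SD), Lcn2 to Galnt15 (0.197 SD) and Serpina3n to the metallothionein gene Mt2 (0.197 SD). Il6st was nearest to Ube4a (0.302 SD), Serpina3m to the zinc transporter gene Slc39a14 (0.296 SD) and Socs3 to Prodh (0.347 SD). Cish was nearest to the ligand gene Cntf at 0.419 SD and Saa3 to Fam210b at 0.440 SD, the loosest matches of the 10. These distances describe the 15 libraries, which differ together by group, and carry no test.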

How the data were processed

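RNA from the tibialis anterior was sequenced in 15 libraries made with the MGIEasy RNA Directional kit, per the labels. Per the submitters' processing notes, Trim Galore, STAR 2.7.9a and RSEM 1.3.3 were used. The genome build, annotation and strand setting are not given in the sources used here. The authors deposited RSEM expected counts, TPM and FPKM for 55416 genes per library, of which 52083 carried a symbol, per the file headers; FPKM was not used.

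Expected counts were rounded and fitted in edgeR 4.0.16 (R 4.3.3): filterByExpr, TMM, the 4 groups in 1 quasi-likelihood fit (11 residual degrees of freedom), with p-values adjusted by Benjamini and Hochberg over 14372 genes in each of 6 comparisons. Standard errors were taken as the size of the log2 fold change over the square root of F. Levels are TMM-normalised CPM, and genes were compared with each other in TPM. The model was tested on simulated data.

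The 10 genes, the pathway and marker lists and the alternatives were chosen with earlier results of these data known. From each list, up to 2 called genes of largest change with a mean CPM of at least 1 were named in 3 comparisons, or else the gene of smallest p; Serpina3k was named outside this rule. Some genes that the rule chose are not reported here. Alternatives covered normalization (RLE, upper quartile), the filter, the groups in the fit, a replicate block, DESeq2 1.42.0, limma 3.58.1 on log2(TPM + 1), and libraries left out. No batch was given.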

Additional observations from a re-analysis of the deposited data

Results flagged for a closer look

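In groups of 4 or 5 libraries, a library was singled out when the gap to its nearest neighbour was a large share of the group's range (Dixon's criterion at 95%). Of 20 groups tested, 6 were singled out, where chance gives about 1 in 20 if tests are independent. These were not independent: the genes were measured in the same libraries, and 5 of the 6 were control replicate 3. The 6 are therefore not weighed against that figure. Control replicate 3 was far above the other 4 controls for Osmr (19.7 CPM, others 8.41 to 10.1), Socs3 (11.2 CPM, others 2.36 to 2.60), Lcn2 (4.37 CPM, others 0.825 to 1.14), Serpina3n (12.4 CPM, others 0.892 to 1.95) and Serpina3m (0.46 CPM, others 0 to 0.112). IgG replicate 4 was far above the other 3 IgG libraries for Saa3 (1.83 CPM, others 0 to 0.126). In control replicate 3 the summed neutrophil markers were 4.95 CPM (others 0.472 to 0.673), the macrophage markers 121 CPM (others 95.1 to 173) and the muscle fibre markers 97255 CPM (others 75847 to 106465). Anti-CD8a replicate 3 held 227 CPM of macrophage markers (others 65.9 and 102).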

How the results depend on the processing

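Of 30 called results among the 10 genes, 15 stood under every alternative that could be fitted (25 at most, 15 of which left out 1 library), 15 were lost under at least 1, and 0 were reversed; 9 of the 30 uncalled results were called under at least 1. The median of all genes moved by up to 0.248 log2 between normalizations. Leaving out 1 library gave 7 to 9 higher in IgG against control (all genes 7665 to 8669), 4 to 8 lower in anti-CD8a against IgG (5688 to 7337), 6 to 9 higher in anti-PD-L1 against control (3014 to 5275), and 2 to 8 higher in anti-PD-L1 against anti-CD8a (1226 to 3233). Over all genes it gave 144 to 2712 in anti-PD-L1 against IgG and 0 to 7 in anti-CD8a against control.

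With upper-quartile normalization or no filter, 1 gene (Cish) was lower in IgG against control. With no filter or DESeq2, 1 (Cish) was lower in anti-CD8a against control. Leaving out both replicates 2 (IgG and anti-PD-L1), 1 (Il6ra) was lower in anti-PD-L1 against IgG and 4 were higher in anti-PD-L1 against anti-CD8a. The Il6ra difference from IgG widens there by construction, so that call is not used. With the 2 groups alone, 5 were higher in anti-PD-L1 against control and 3 in anti-PD-L1 against anti-CD8a. All genes called in anti-PD-L1 against IgG (791) became 37 with the 2 groups alone, 4213 without both replicates 2 and 1787 with DESeq2. Those in anti-CD8a against control (2) became 7 with upper-quartile normalization, 67 with no filter, 56 with the 2 groups alone, 12 without both replicates 2, 66 with DESeq2 and 1 without control replicate 3 and anti-CD8a replicate 3, a setting chosen after the data were seen. Those in anti-PD-L1 against anti-CD8a (2837) became 1712 with the 2 groups alone and 1760 without both replicates 2. The cause was not tested.

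Replicate numbers did not pair the libraries (3 of 19 same-numbered pairs correlated over 0.1, from -0.345 to 0.18). With the replicate block, 7 of the 10 genes were higher in IgG against control, 5 lower in anti-CD8a against IgG, 7 higher in anti-PD-L1 against control and 6 higher in anti-PD-L1 against anti-CD8a. Over all genes the block gave 69 in anti-PD-L1 against IgG, 0 in anti-CD8a against control and 1721 in anti-PD-L1 against anti-CD8a. Of 31 called results for the pathway genes that the naming rule chose and Il6, 23 stood under every alternative and 8 were lost under at least 1.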
